A study of Mus musculus with 38 samples.

Results

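Apba1, Adgrl1, Hs3st1, Grk2, Mapk6 and Rundc3a are 6 of the 22401 genes with a coding sequence (CDS) in these ribosome profiles of mouse primary cortical neurons. They were chosen by their readout, as leading decreases in CDS footprints after KCl, so that every value of KCl against rest is given here as a description, from which no support is drawn. All 6 were measured in all 38 libraries, and all 6 passed the filter on low counts. In PL-Ribo-seq, TurboID, a biotin ligase, tags nearby proteins so that labeled ribosomes can be recovered on streptavidin, and footprints, the stretches of mRNA shielded by a ribosome during nuclease digestion, are sequenced. An input library holds the ribosomes of the whole lysate, and a pulldown library holds those recovered on streptavidin. TurboID-PSD95 carries elements of the PSD95 transcript that direct it to dendrites, whereas Pan-TurboID has no localization signal, and both were expressed from a doxycycline-inducible lentivirus.

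Neurons of the KCl experiment expressed either ligase and were left at rest or depolarized, which gave 8 groups of 3 libraries with input and pulldown of each. Depolarization meant tetrodotoxin with DL-AP5 for 2 h, then 55 mM KCl for 1 h and a rest of 30 min. A separate set with the PSD95 ligase received 100 µM DHPG, which activates metabotropic glutamate receptors of group I, over 10 min after the same blockers, as 3 inputs and 3 pulldowns. A further set with the PSD95 ligase received 20 nM siRNA against Eif4g2 for 72 h, at rest or with KCl, in 4 groups of 2 libraries. All groups share cycloheximide for 2 min and biotin for 30 min per the labels, whereas the study's methods give 20 min of biotin with DHPG. The labels do not say whether resting neurons also received the blockers. Libraries with a control siRNA were not analysed here, and no resting libraries belong to the DHPG set, so levels in the DHPG and knockdown sets stand beside the KCl experiment without a test of the difference. The cultures came from embryos of CD-1 mice. The study's methods name 3 biological replicates for PL-Ribo-seq, a number that the knockdown groups of 2 do not have.

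Depolarization opens voltage-gated calcium channels, and the calcium that enters starts signaling to the nucleus and to the ribosome. The best known response of cortical neurons is the rapid rise of immediate early genes such as Fos. Decreases are known less well, since they need loss of an existing mRNA, fewer ribosomes on it, or both. A footprint count cannot tell these apart, and it also cannot tell fewer cells of a type from less RNA per cell. The 6 genes do not form a pathway. Apba1 (Mint1, X11α) is an adaptor that binds amyloid precursor protein and forms a complex with CASK and LIN7 proteins. Adgrl1 (latrophilin-1) is an adhesion G protein-coupled receptor, binds teneurins and FLRT proteins, and is a receptor of α-latrotoxin. Grk2 encodes a kinase that phosphorylates activated G protein-coupled receptors, after which arrestins bind them. Mapk6 encodes ERK3, an atypical MAP kinase whose partner is MK5 (Mapkapk5). Rundc3a encodes a RUN domain protein that is found with the GTPase Rap2. Hs3st1 encodes a 3-O-sulfotransferase that adds a late sulfate group to heparan sulfate.

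On mm10, the CDS of Apba1 spans chromosome 19 from 23892806 to 23945781 (12 CDS segments, 2529 nt), and that of Adgrl1 spans chromosome 8 from 83915499 to 83939086 (22 segments, 4401 nt), both on the plus strand. Rundc3a lies on the plus strand of chromosome 11 from 102393676 to 102402123 (11 segments, 1341 nt). On the minus strand lie Grk2 on chromosome 19 from 4287100 to 4306014 (21 segments, 2070 nt), Mapk6 on chromosome 9 from 75388052 to 75398133 (5 segments, 2163 nt) and Hs3st1 on chromosome 5 from 39614363 to 39615298 (1 segment, 936 nt). The CDS of Apba1 overlaps an annotated antisense transcript (AC148021.1), and that of Adgrl1 overlaps Gm10644 on the other strand and 2 small miRNA entries. Since the use of strand in counting is not stated, footprints of these overlaps could not be separated, whereas the other 4 genes overlap no other annotated gene in their CDS. The first coding bases are shown because several results turn on where the 5′ UTR ends and the CDS begins, with the start codon in capitals:
Apba1: ATGaaccacttggagggctccgcggag
Adgrl1: ATGgcccgcttggctgcagcactctgg
Grk2: ATGgccgacctggaggcggtgctggcc
Mapk6: ATGgcagagaaattcgaaagtctcatg
Rundc3a: ATGgaagcgagctttgtccagaccacc
Hs3st1: ATGaccttgctgctcctgggtgcggtg

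Upstream of these starts, the 5′ UTRs of the 6 genes differ widely. Mapk6 has a 5′ UTR of 776 nt with 12 ATG triplets, more than 98.5% of the 12571 genes whose sequence could be read. Adgrl1 has 912 nt with 4 ATG, Hs3st1 322 nt with 6, Apba1 276 nt with 2, Rundc3a 273 nt with 1 and Grk2 208 nt with 1. At least 1 ATG in the 5′ UTR is common, in 53.8% of all genes. GC content ran from 46.9% in the 5′ UTR of Hs3st1 and 49.0% in that of Mapk6 to 85.1% in that of Grk2, against a median of 64.8%. The sequences are those of GENCODE M21 transcripts.

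In the 3′ UTR, the pentamer ATTTA, the core of AU-rich elements that are known for marking short-lived mRNAs, was searched on the transcript strand. It occurred 4 times in Apba1, 4 times in Mapk6, 3 times in Hs3st1, once each in Adgrl1 and Grk2 and not in Rundc3a, and 71.6% of all genes hold it, with a median of 2. The longer TATTTAT, which contains it, occurred once in Apba1 and once in Mapk6, and in 31.7% of all genes. The match is a description of the letters, and the 6 genes were no more uniform in it than in their 5′ UTRs. A window of 29 bases around 1 match of each gene that has any is printed with the pentamer in capitals, to show how different the settings are:
Apba1: tgcatctgggatATTTAtattgtatcttt
Mapk6: acatcacatcttATTTAtttttagcaaat
Hs3st1: ctgcttaaaaaaATTTAttggtattatgg
Adgrl1: tgggtcgagtgcATTTAacgagaataaaa
Grk2: tataaacctctaATTTAttttgttgaatt

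The libraries held between 5906281 and 35643247 footprints, of which 2048601 to 14646331 fell in the CDS of the transcripts used. Levels are CPM, counts per 1000000 CDS footprints. Marker genes of neurons summed to between 5055 and 10270 CPM over the groups, and those of microglia to between 0 and 20.0 CPM. Neuron markers were lower after KCl without overlap in TurboID-PSD95 inputs (8190.5 to 8888 CPM at rest, 6608 to 7602 after KCl), in TurboID-PSD95 pulldowns (6762 to 7488 against 5121 to 6523) and in knockdown inputs (9167 to 9309 against 7275 to 7421) and pulldowns (7099 to 7127 against 5055 to 5207), and overlapped with Pan-TurboID. Astrocyte markers overlapped in the KCl experiment and were higher after KCl in knockdown inputs (569 to 582 against 783 to 795) and pulldowns (443 to 554 against 625 to 840.2). In the knockdown, endothelial markers were also higher after KCl in inputs (63.2 to 64.5 against 76.7 to 94.3) and pulldowns (33.3 to 39.7 against 46.6 to 50.3), and oligodendrocyte markers were lower in pulldowns (68.8 to 102 against 42.3 to 55.7). Microglia markers were higher after KCl in knockdown pulldowns (9.39 to 9.71 against 15.5 to 17.2) and overlapped in knockdown inputs. As a check of the labels, the activity gene Fos had a mean of 334 CPM in resting and 2603 CPM in depolarized TurboID-PSD95 inputs. In DHPG inputs, Fos had 39.5 CPM and Npas4 8.87 CPM, below the resting inputs of the KCl experiment, where the means of Npas4 were 53.4 and 67.3 CPM, whereas Arc had 32.2 CPM with DHPG and means of 9.96 and 14.1 CPM there. Heat and stress genes summed to between 1046 and 1819 CPM in resting and between 1731 and 3779 CPM in depolarized groups of the KCl experiment. They were without overlap in each matched pair of groups there and in the knockdown. Mitochondrially encoded genes overlapped in each matched pair of the KCl experiment (TurboID-PSD95 pulldowns, 3240 to 6314 CPM at rest and 3802 to 5015 after KCl). They were higher after KCl in knockdown inputs (2157 to 2311 against 5618 to 5796) and pulldowns (8767 to 9717 against 18207 to 20119). Whether any of these has a part in the results was not tested. The labels number the replicates without naming separate cultures, so p-values measure only the spread between these samples.

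After KCl, all 6 genes had fewer CDS footprints in each of the 6 matched pairs of groups, and within each pair every depolarized library was below every resting library. Among all genes tested, 15.3% showed that pattern in TurboID-PSD95 inputs, 15.9% in Pan-TurboID inputs, 11.6% in TurboID-PSD95 pulldowns and 15.8% in Pan-TurboID pulldowns. Since the genes were picked on these libraries, nothing is read from these counts. With 2 libraries against 2, the pattern came to 32.8% of genes in knockdown inputs and 28.5% in knockdown pulldowns.

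**Figure D1:**
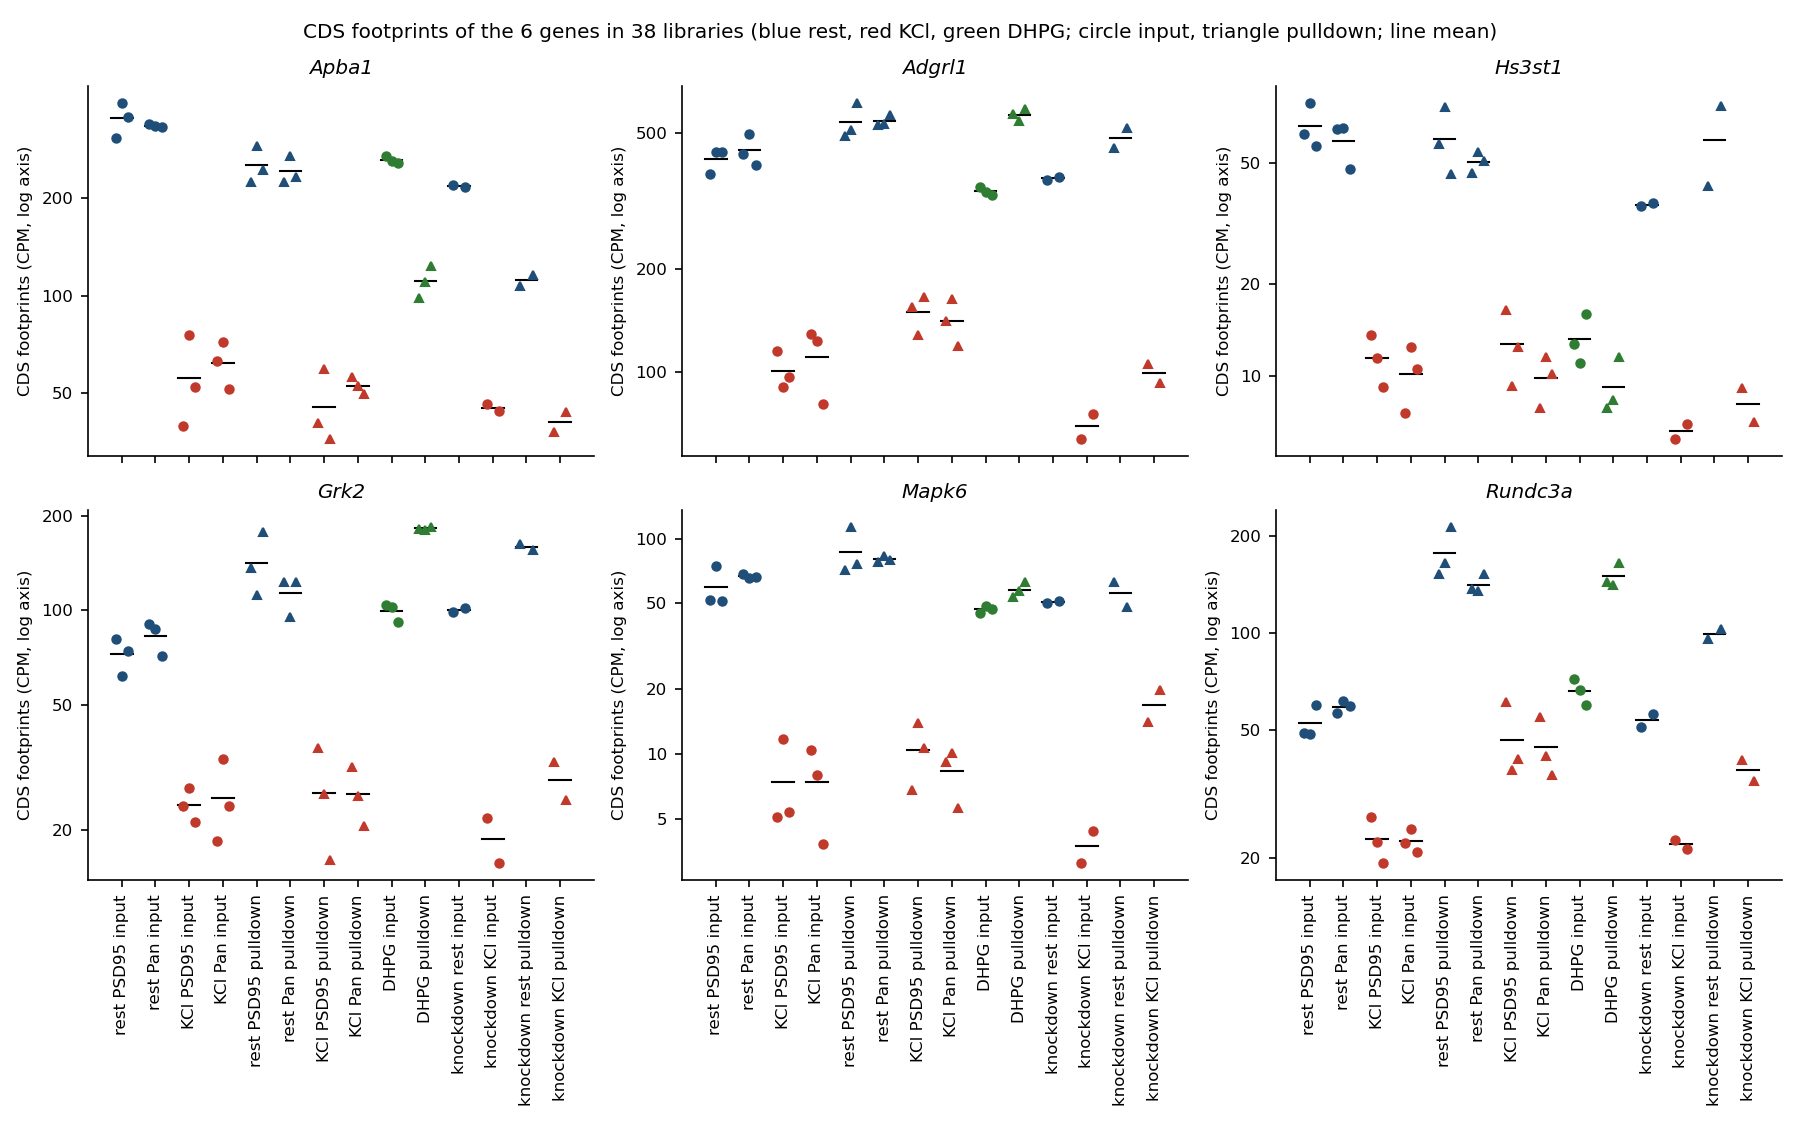
CDS footprints of each gene in CPM (log axis) in every library, by group along the x axis, with circles for inputs, triangles for pulldowns and a line at each mean. Depolarized libraries (red) lie below the resting ones (blue) of the same ligase or knockdown and fraction in every gene, whereas the DHPG libraries (green) of Hs3st1 sit between 7.85 and 16.02 CPM, among its depolarized ones.

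Apba1 had the highest level per length in resting inputs, with 139 CPM per kb of CDS for TurboID-PSD95. Its resting TurboID-PSD95 inputs held 307, 394 and 356 CPM and the depolarized ones 39.6, 75.4 and 52.2. In Pan-TurboID inputs, the values were 338, 334 and 332 CPM at rest and 62.6, 72.1 and 51.3 after KCl. The fall to 15.8% and 18.5% of rest left a wide gap between the groups, and the edgeR fit over both ligases gave a log2 fold change of −2.51 (SE 0.162). In the pulldowns, TurboID-PSD95 gave 224, 289.8 and 244 CPM at rest and 40.3, 59.3 and 36.1 after KCl, and Pan-TurboID gave 224, 270.4 and 233 against 55.9, 52.7 and 49.5. Resting pulldowns were thus below resting inputs of the same ligase, and depolarized libraries of both fractions overlapped. Per kb of CDS, resting TurboID-PSD95 pulldowns held 99.8 CPM for Apba1, below 132 for Rundc3a and 122 for Adgrl1.

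Adgrl1, the surface receptor, had more footprints than Apba1 but was lower per length, with 95.6 CPM per kb of CDS in resting TurboID-PSD95 inputs. These inputs held 381, 441 and 440.4 CPM at rest and 115, 90.3 and 96.5 after KCl. Pan-TurboID inputs held 434, 497 and 405 CPM against 129, 124 and 80.5. The depolarized mean was 23.9% and 24.9% of rest, with a log2 fold change of −1.999 (SE 0.152) over both. In contrast to Apba1, its pulldowns stood above its inputs, with 490.1, 511 and 614 CPM at rest and 155, 128 and 166 after KCl for TurboID-PSD95. For Pan-TurboID they were 529, 534 and 567 CPM against 141, 164 and 119.6, where the depolarized pulldowns and inputs overlapped.

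Grk2, which acts on receptors once they are active, held 81.2, 61.8 and 74.3 CPM in resting TurboID-PSD95 inputs and 23.9, 27.2 and 21.1 in depolarized ones. Pan-TurboID inputs held 90.5, 87.1 and 71.7 CPM against 18.5, 33.5 and 23.9. The log2 fold change in inputs of −1.61 (SE 0.186) was smaller than the −2.43 (SE 0.271) in TurboID-PSD95 pulldowns, where 136, 112 and 178 CPM at rest stood against 36.5, 26.1 and 16.1. Pan-TurboID pulldowns gave 123, 95.1 and 123 CPM against 31.7, 25.7 and 20.6. The depolarized libraries of inputs and pulldowns overlapped, whereas every resting pulldown exceeded every resting input of the same ligase.

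Mapk6 had the largest change of the 6. Resting TurboID-PSD95 inputs held 52.0, 74.6 and 51.2 CPM and depolarized ones 5.11, 11.7 and 5.34, from as few as 12 counts in a library. Pan-TurboID inputs held 68.6, 65.3 and 66.4 CPM against 10.4, 7.93 and 3.82. The means were 12.4% and 11.1% of rest, with a log2 fold change of −3.09 (SE 0.251). Pulldowns were close to this, with 71.3, 113 and 76.1 CPM against 6.81, 13.9 and 10.6 for TurboID-PSD95, and 78.1, 83.2 and 79.5 against 9.11, 10.1 and 5.59 for Pan-TurboID.

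Rundc3a had the smallest change in inputs. TurboID-PSD95 inputs held 49.0, 48.7 and 59.8 CPM at rest and 26.8, 22.5 and 19.3 after KCl, and Pan-TurboID inputs 56.4, 61.6 and 59.5 against 22.3, 24.6 and 20.9. The log2 fold change was −1.27 (SE 0.167), and the depolarized means were 43.6% and 38.2% of rest. Its pulldowns stood far above its inputs, with 152, 166 and 214 CPM against 61.3, 37.7 and 40.6 for TurboID-PSD95 and 137, 135 and 152 against 55.0, 41.6 and 36.3 for Pan-TurboID. The highest depolarized TurboID-PSD95 pulldown (61.3 CPM) exceeded all resting inputs of that ligase, and the other two lay below them.

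Hs3st1, the enzyme of heparan sulfate, held 62.5, 78.8 and 56.9 CPM in resting TurboID-PSD95 inputs and 13.6, 11.5 and 9.20 in depolarized ones. Pan-TurboID inputs held 64.5, 65.3 and 47.7 CPM against 7.59, 12.4 and 10.5. The change was nearly the same under both ligases, at 17.3% and 17.2% of rest, with a log2 fold change of −2.50 (SE 0.196). Pulldowns held 57.7, 76.6 and 45.9 CPM against 16.5, 9.28 and 12.4 for TurboID-PSD95 and 46.3, 54.5 and 50.6 against 7.85, 11.5 and 10.2 for Pan-TurboID. Inputs and pulldowns of this gene overlapped in both conditions.

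In the fit of all 24 libraries of the KCl experiment, 9.03% of 13019 genes were lower in depolarized inputs at an FDR under 0.05 and 6.32% were higher, and all 6 genes were among the lower and 0 of 6 among the higher, as their choice on these libraries set. In pulldowns, 3.28% of genes were lower with TurboID-PSD95 and 3.16% with Pan-TurboID, and again all 6 genes were among them, from which nothing is read. The median log2 fold change of the 6 was −2.25 in inputs, against −0.01 over all genes. Without replicate 2 or 3, the genes past the threshold in inputs dropped from 1998 to 887 or 517.

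**Figure D2:**
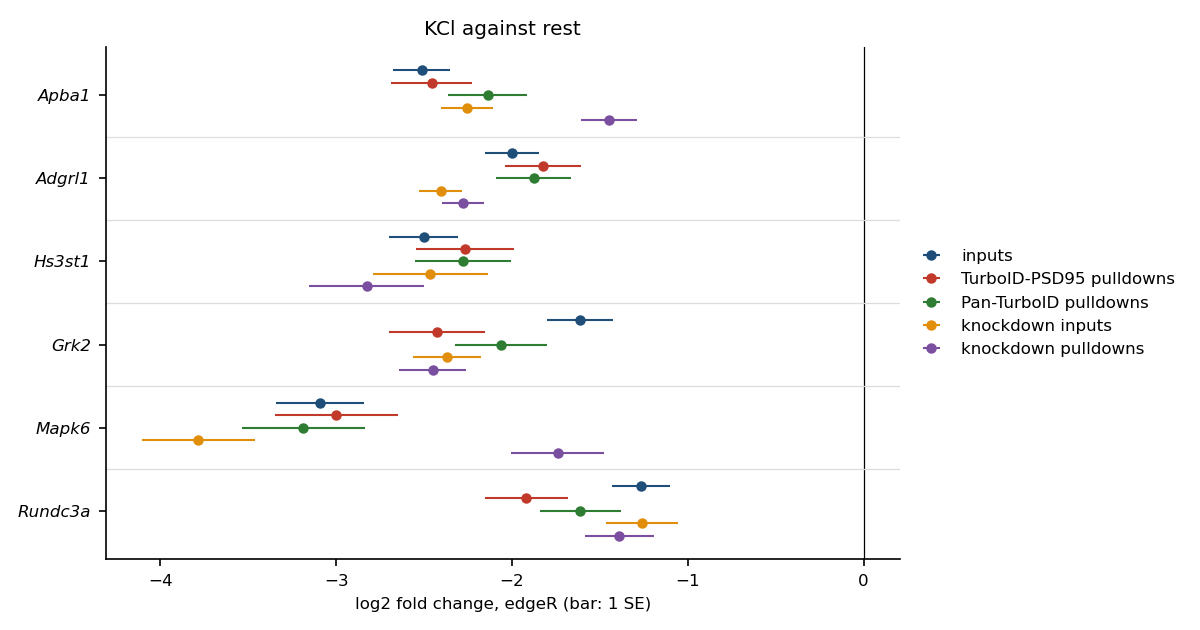
Log2 fold change of KCl against rest from edgeR for each gene (points) with 1 SE (bars), in inputs and pulldowns of the KCl experiment and of the knockdown. Mapk6 runs from −3.78 in knockdown inputs to −1.74 in knockdown pulldowns, the widest range, and Adgrl1 stays between −2.41 and −1.82.

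Neurons with siRNA against Eif4g2, a translation initiation factor, gave libraries of a separate experiment. Since the rule does not say which KCl libraries it used, the values of KCl against rest in these are a description too. Adgrl1 had 364 and 373 CPM in resting inputs and 63.7 and 75.4 after KCl. Eif4g2 itself had 284 CPM in resting knockdown inputs against 569.6 CPM in resting TurboID-PSD95 inputs of the KCl experiment. Experiment and siRNA cannot be told apart in that difference.

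In knockdown inputs, all 6 genes were among the 10.3% of 12239 genes that were lower after KCl, from which nothing is read. Mapk6 had 50.1 and 51.0 CPM at rest and 3.11 and 4.36 after KCl, from 12 and 10 counts (edgeR, log2 fold change −3.78, SE 0.321). Apba1 went from 219 and 217 CPM to 46.1 and 44.0 (−2.26, SE 0.146), and Grk2 from 98.6 and 102 CPM to 21.8 and 15.7 (−2.37, SE 0.193). Hs3st1 went from 36.0 and 37.0 CPM to 6.22 and 6.97 (−2.46, SE 0.327). Rundc3a went from 51.2 and 56.1 CPM to 22.8 and 21.4 (−1.26, SE 0.203).

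In knockdown pulldowns, all 6 genes were among the 12% of genes that were lower, again as a description. Apba1 had 107 and 116 CPM at rest and 37.8 and 43.7 after KCl (edgeR, −1.45, SE 0.158). Mapk6 had 63.1 and 48.2 CPM against 14.1 and 19.7 (edgeR, −1.74, SE 0.265). These 2 changes were smaller than in inputs of the same neurons. Grk2 went from 163 and 156 CPM to 32.8 and 24.9 (−2.45), Hs3st1 from 42.1 and 76.8 CPM to 9.16 and 7.05 (−2.83) and Rundc3a from 95.8 and 103 CPM to 40.4 and 34.8 (−1.39). The resting pulldowns of Hs3st1 differed from each other by more than the resting inputs did. Adgrl1 went from 453 and 518 CPM to 106 and 93.0.

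The difference of the KCl change between knockdown pulldowns and inputs was past the threshold and higher for 1.5% of genes, 2 of the 6 among them, from which nothing is read, since the choice of genes may have used these KCl changes. It was +2.05 for Mapk6 (SE 0.440), and +1.78 and no longer past the threshold without the KCl input of replicate 1. For Apba1 it was +0.81 (SE 0.217), no longer past the threshold when any of 6 of the 8 libraries was left out. The depolarized inputs of Mapk6 rest on 12 and 10 counts. For Adgrl1 the difference was 0.13 (95% interval −0.20 to 0.46), for Grk2 −0.08 (−0.63 to 0.46), for Rundc3a −0.13 (−0.69 to 0.43) and for Hs3st1 −0.36 (−1.32 to 0.60).

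Footprints in the 5′ UTR fell less than those in the CDS, or did not fall. In inputs of the KCl experiment, the log2 ratio of depolarized to resting mean CPM in the 5′ UTR was +0.37 for Apba1, +0.01 for Rundc3a, −0.08 for Grk2, −0.21 for Adgrl1, −0.39 for Mapk6 and −1.40 for Hs3st1. The ratios in the CDS over the same libraries were −2.54, −1.30, −1.66, −2.03, −3.09 and −2.53, in the same order of genes. In all 6 genes the CDS thus had the lower ratio, and in 5 of them the 5′ UTR was within 0.4 of no change. Over 11096 genes, the median difference between 5′ UTR and CDS was 0.18, and it was 2.91 for Apba1 and 2.70 for Mapk6. Choosing genes with few CDS footprints after KCl favors a large difference. Among the 586 genes whose CDS ratio was below −1, the median difference was 1.04, close to the 1.14 of Hs3st1, although most of the 6 lie far below that limit.

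As a share of all footprints in the 5′ UTR and the CDS together, the 5′ UTR of Apba1 held 13.7% ± 0.174 (SD, n = 3) in resting TurboID-PSD95 inputs and 60.9% ± 5.27 in depolarized ones. For Mapk6 the share went from 20.0% ± 2.70 to 52.6% ± 8.77, and for Grk2 from 25.1% ± 8.06 to 52.1% ± 0.643. Adgrl1 went from 32.1% ± 3.06 to 65.8% ± 6.51. Rundc3a already had 53.5% ± 6.71 of its footprints in the 5′ UTR at rest and reached 77.3% ± 1.40. Hs3st1 went from 23.3% ± 3.11 to 42.9% ± 12.8, the widest spread of the 6. Over all genes the share was 20.2% ± 3.05 at rest and 24.97% ± 2.69 after KCl. In Pan-TurboID inputs, Apba1 went from 15.7% ± 0.677 to 49.3% ± 17.97, and Hs3st1 overlapped, with 20.7% to 27.5% at rest and 20.0% to 49.2% after KCl. The CDS is part of this share, so the choice of the genes favors its rise after KCl, and nothing is read from it. Overlap was not counted over all genes. Footprints were counted at their 5′ end with no offset, so a ribosome at the start of the CDS is counted in the 5′ UTR, at rest as after KCl.

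In TurboID-PSD95 pulldowns, the 5′ UTR ratio was +0.64 for Apba1, +0.58 for Rundc3a, +0.22 for Grk2 and +0.11 for Adgrl1, against −0.65 for Mapk6 and −0.58 for Hs3st1. Here the median 5′ UTR ratio over 7455 genes was +0.57. Grk2 had its largest 5′ UTR ratio in Pan-TurboID pulldowns, at +0.77. In knockdown inputs the 5′ UTR ratio was +0.76 for Rundc3a, +0.56 for Apba1, +0.22 for Adgrl1, −0.25 for Grk2, −0.73 for Mapk6 and −0.94 for Hs3st1, each above its CDS ratio. Knockdown pulldowns were the exception for Apba1, whose 5′ UTR was at −0.71 and with a difference of 0.74 from the CDS. Genes whose CDS ratio was below −1 had a median difference of 1.52 in TurboID-PSD95 and 1.26 in Pan-TurboID pulldowns. Their median was 1.56 in knockdown inputs and 1.20 in knockdown pulldowns. Hs3st1 in Pan-TurboID pulldowns (1.08) and knockdown inputs (1.53) and Apba1 in knockdown pulldowns lay below these medians, and the other differences lay above.

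**Figure D3:**
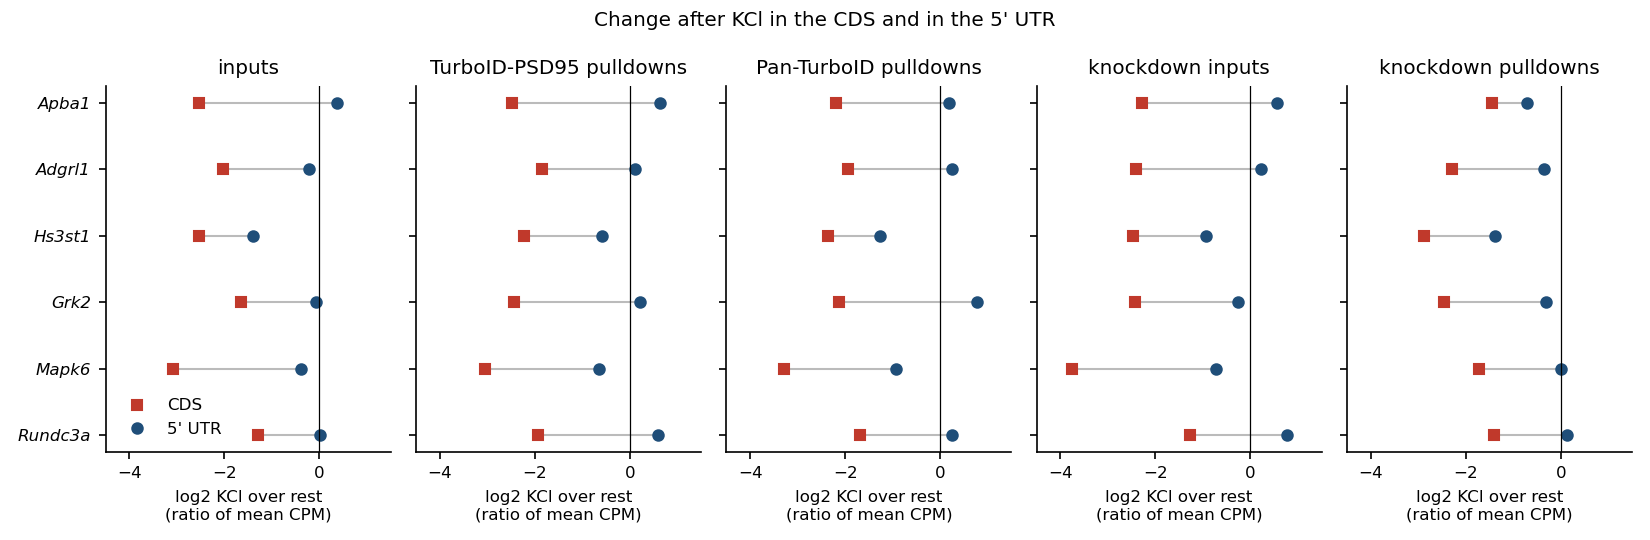
Log2 ratio of depolarized to resting mean CPM in the CDS (red squares) and in the 5′ UTR (blue circles) of each gene, joined by a line, in 5 sets of libraries. The 5′ UTR lies to the right of the CDS for every gene in every set, by 2.91 for Apba1 in inputs and by 0.74 in knockdown pulldowns. The choice of genes with few CDS footprints after KCl favors this.

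Within the CDS, single segments (the parts of exons that the deposited counts are given for) were compared where the resting libraries held at least 20 counts. In inputs, all 11 such segments of Apba1 were lower after KCl (log2 ratios −4.12 to −2.01), as were all 21 of Adgrl1 (−3.17 to −1.25) and all 5 of Mapk6 (−5.28 to −1.98). In inputs of Grk2 and Rundc3a, the start of the CDS changed less than the remainder. Segment 1 of Grk2 (113 nt, chromosome 19, 4305902 to 4306014) had 448 counts at rest and 345 after KCl, a log2 ratio of −0.23. Segments 2 and 3 were at +0.05 and +0.76 from 25 to 54 counts each, and segments 4 to 21 ran from −6.06 to −1.14. Rundc3a was at −0.57, −0.12, −0.77 and +0.38 in segments 1 to 4, and its segments 5 to 11 ran from −2.13 to −1.33. Segment 1 of Rundc3a (107 nt, chromosome 11, 102393676 to 102393782) rests on 354 counts at rest and 258 after KCl. This split of the segments was seen in the data and has no test.

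In resting TurboID-PSD95 inputs, segment 1 of Grk2 held 12.4% ± 5.07 (SD, n = 3) of the CDS footprints, from 9.09% to 18.2%, and in depolarized ones 48.7% ± 8.69, from 39.8% to 57.1%. Pan-TurboID inputs gave 18.2% ± 4.60 at rest and 32.1% ± 10.5 after KCl, where the ranges of 13.5% to 22.7% and 20.5% to 41.0% overlapped. In knockdown inputs it went from 5.96% and 10.0% to 27.8% and 34.5%. Rundc3a went from 18.2% ± 5.87 to 31.8% ± 11.3 in TurboID-PSD95 inputs, with overlap, and from 14.7% and 18.1% to 49.0% and 53.4% in knockdown inputs, without. For Apba1, in which 1 long segment holds most of the counts, the share was 59.7% ± 1.75 at rest and 54.0% ± 4.84 after KCl in TurboID-PSD95 inputs, without overlap, and 54.8% ± 3.46 and 55.15% ± 4.27 in Pan-TurboID inputs, with overlap.

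Over 8886 genes with more than 1 segment, the first segment changed more upward than the remaining CDS, by a median of 0.36. The difference was +1.95 for Grk2, +0.96 for Rundc3a and +0.79 for Adgrl1, and a large decrease in the CDS, for which they were chosen, enters it. Mapk6 went the other way, at −2.10, whereas it was at −0.96 in Pan-TurboID pulldowns, −0.09 in TurboID-PSD95 pulldowns and −0.22 in knockdown pulldowns. Its first segment in inputs had 513 counts at rest and only 15 after KCl, a log2 ratio of −4.94, against −2.83 in its remaining CDS. In knockdown inputs, Grk2 was at +2.41, Rundc3a at +2.43 and Mapk6 at −1.52, the last from 2 counts of its first segment after KCl. Adgrl1 had the trait of Grk2 in Pan-TurboID pulldowns, where its first segment was at +0.02 and its remaining CDS at −1.96, and in knockdown pulldowns, with a difference of +1.53. Beside these ratios, the later segments of Grk2 in depolarized knockdown inputs held 0 to 11 counts each.

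**Figure D4:**
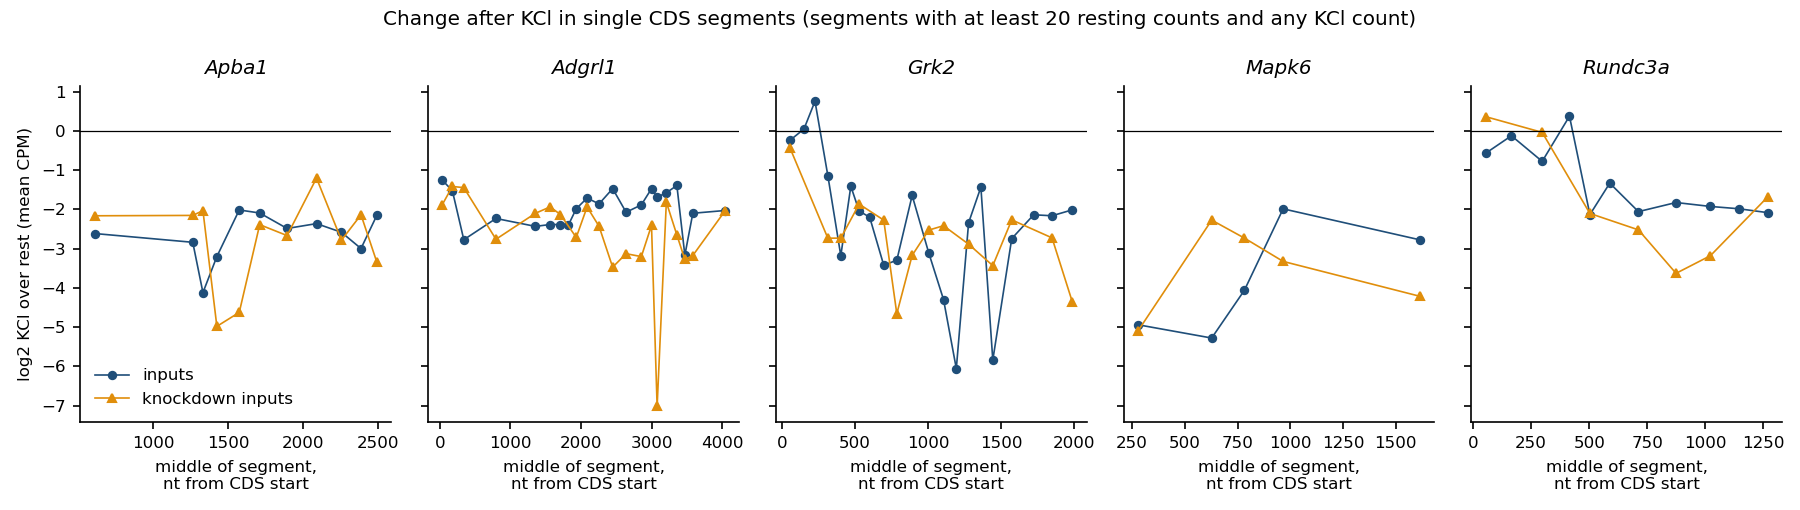
Log2 ratio of depolarized to resting mean CPM in each CDS segment with at least 20 resting counts and any count after KCl, against the middle of the segment in nt from the CDS start, for the 5 genes with more than 1 segment. Inputs of the KCl experiment (blue circles) and knockdown inputs (orange triangles) both start near 0 in Grk2 and Rundc3a, and below −4 in Mapk6.

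Pulldown against input, averaged over rest and KCl, is not the contrast by which the genes were chosen, although the enrichment of Rundc3a was known from earlier results of these data. With TurboID-PSD95, 41% of 13019 genes differed between pulldown and input in either direction, and 4 of the 6 did, all higher in pulldowns. Rundc3a had the largest enrichment at a log2 fold change of 1.43 (edgeR, SE 0.166, FDR 9.91e-06), followed by Mapk6 at 0.59 (SE 0.239, FDR 0.0489), Grk2 at 0.58 (SE 0.184, FDR 0.0141) and Adgrl1 at 0.50 (SE 0.147, FDR 0.00841). For Grk2 this averages 72.5 CPM in inputs and 142 in pulldowns at rest with 24.1 and 26.2 CPM after KCl. The count of 4 of 6 rests on the library set, and leaving out each replicate number left between 1 and 3 of the 6. Of the calls, that of Rundc3a held each time, that of Mapk6 was lost each time (and also without TMM, FDR 0.0599, and with only the libraries compared, FDR 0.0581), that of Grk2 was lost without replicate 1 or 3, and that of Adgrl1 was lost without replicate 3 (0.40, FDR 0.130). These fits did not pair input and pulldown of the same number. Paired, all 4 passed in edgeR (Mapk6 FDR 0.00186, Grk2 FDR 0.0035, Adgrl1 FDR 2.55e-05), where 6805 of 13019 genes did. Hs3st1 was at 0.05 (95% interval −0.33 to 0.42), which does not place it on either side.

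Apba1 went the other way from Rundc3a, at −0.35 with TurboID-PSD95 (edgeR, SE 0.156, FDR 0.0746). Without TMM it passed, at −0.39 (edgeR, FDR 0.0400). With input and pulldown of the same number treated as a pair, it was lower in pulldowns at −0.36 (edgeR, FDR 0.00230). With Pan-TurboID, 34.2% of genes differed and 1 of the 6 did, Rundc3a at 1.17 (edgeR, SE 0.164, FDR 0.000192). Adgrl1 was at 0.37 (FDR 0.0532) and Apba1 at −0.30 (FDR 0.137). The pairing brought both past the threshold (edgeR, FDR 0.000664 and 0.00756), for 3 of 6, where it called 6202 of 13019 genes. Mapk6 (0.32, FDR 0.316), Grk2 (0.29, FDR 0.221) and Hs3st1 (−0.09, FDR 0.732) did not pass.

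The enrichment did not differ detectably between the ligases. The difference of TurboID-PSD95 from Pan-TurboID was past the threshold for 0.00768% of genes (1 gene, and 169 at an unadjusted p under 0.05 in edgeR) and for 0 of the 6, also at an unadjusted p under 0.05. For Rundc3a it was 0.26 (95% interval −0.19 to 0.71), for Grk2 0.29 (−0.22 to 0.79), for Mapk6 0.27 (−0.39 to 0.93) and for Apba1 −0.05 (−0.48 to 0.38). As a check of the ligases, Dlg4, the gene of PSD95, reached 2017 ± 939 CPM (SD, n = 3) at rest when TurboID-PSD95 was pulled down and 43.8 ± 5.53 CPM when Pan-TurboID was. The TurboID-PSD95 construct itself carries PSD95 from rat, and footprints on it may be counted in Dlg4. Resting inputs held 159 CPM of Dlg4 with TurboID-PSD95 and 54.2 CPM with Pan-TurboID. These values therefore do not measure recovery of the neurons' own Dlg4.

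The spread between replicates differed by set. The chi-square per gene between 2 libraries of a group is 1 with sampling noise alone. It was 1.48 to 1.90 in DHPG inputs, 2.83 to 8.87 in DHPG pulldowns and 2.81 to 4.65 in the knockdown groups. In the KCl experiment it was 8.61 to 47.5. A smaller spread brings more genes past the threshold, so the shares called are not compared between sets. In the DHPG set, 79.8% of 12273 genes differed between pulldown and input, and 5 of the 6 did. Rundc3a had 72.3, 66.7 and 60.0 CPM in inputs and 144, 142 and 165 in pulldowns (edgeR, 1.39, SE 0.0845, FDR 4.42e-11). Grk2 had 104, 103 and 91.8 CPM against 182, 180.4 and 185 (1.08), Adgrl1 349, 337 and 329 against 569.5, 542 and 590.4 (0.96) and Mapk6 45.3, 48.7 and 46.9 against 53.3, 57.1 and 62.6 (0.51). Apba1 was lower in pulldowns, with 269, 261 and 256 CPM against 98.1, 110.1 and 124 (−1.03, SE 0.0750, FDR 4.67e-10). Hs3st1 was at −0.29 (95% interval −0.63 to 0.06, edgeR, FDR 0.146). Without TMM scaling, fold changes of all genes shift by −0.21 in the median, which turns no direction here and brings Hs3st1 past the threshold (−0.49, FDR 0.0186). In the knockdown set, 59.7% of genes differed and all 6 did, with Mapk6 at 1.29, Rundc3a at 0.93, Grk2 at 0.74, Hs3st1 at 0.61 (FDR 0.0347), Adgrl1 at 0.57 and Apba1 at −0.46. The value of Mapk6 averages unlike states, with 50.5 CPM in inputs and 55.7 in pulldowns at rest and 3.73 against 16.9 after KCl. That of Apba1 does too, with 218 CPM against 111 at rest and 45.1 against 40.7 after KCl. The sign of the estimate for Rundc3a, Grk2, Adgrl1, Mapk6 and Apba1 was the same in all 4 comparisons, past the threshold in each for Rundc3a. With input and pulldown paired in the KCl experiment, Adgrl1 and Apba1 passed in all 4 too. That pairing called 6805 of 13019 genes with TurboID-PSD95 and 6202 with Pan-TurboID. How many of all genes pass in all 4 was not counted, so nothing is read from this. Hs3st1 lost its call in the knockdown without TMM (0.50, FDR 0.0803), when the KCl pulldown of replicate 1 was left out (0.49, FDR 0.176) and when any of 5 other libraries was, the lowest value being 0.37 (FDR 0.186) without the resting pulldown of replicate 2.

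**Figure D5:**
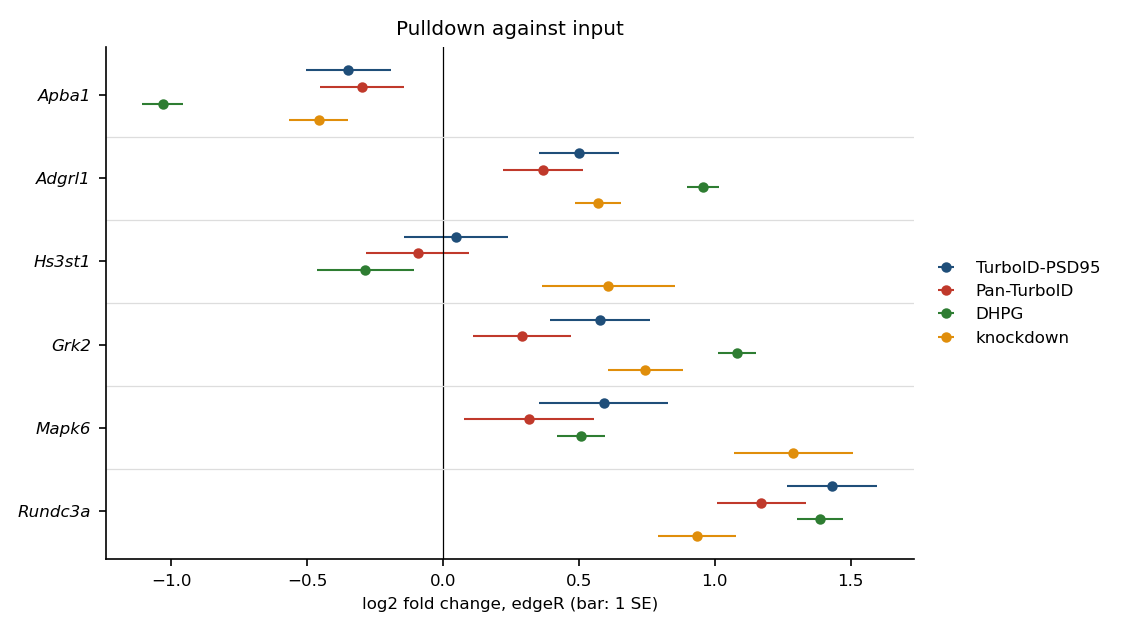
Log2 fold change of pulldown against input from edgeR for each gene (points) with 1 SE (bars), with TurboID-PSD95 and Pan-TurboID over rest and KCl, after DHPG, and with knockdown over rest and KCl. Apba1 lies between −1.03 and −0.30, Rundc3a between 0.93 and 1.43, and Hs3st1 on both sides of 0.

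At the first segment, pulldowns of all genes were low relative to the remaining CDS at rest, by a median log2 difference of −1.36 for TurboID-PSD95 and −1.30 for Pan-TurboID. The 5 genes with several segments lay from −2.29 (Rundc3a) to −0.61 (Apba1) and from −2.19 (Grk2) to −0.32 (Apba1). Segment 1 of Grk2 held 4.19% ± 1.81 (SD, n = 3) of CDS footprints in resting TurboID-PSD95 pulldowns, against the 12.4% of inputs given above. The 5′ UTR of all genes was likewise lower in pulldowns, at a median of −1.63 for TurboID-PSD95, and the 6 genes lay between −1.44 and −0.80.

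Across the 14 groups, Hs3st1 was low with DHPG in both fractions. Its DHPG inputs held 12.7, 11.02 and 16.02 CPM and its DHPG pulldowns 7.85, 8.32 and 11.5, which overlap all 4 depolarized groups of the KCl experiment and lie below all resting groups. The other 5 genes in DHPG inputs had means of 262 CPM for Apba1, 338 for Adgrl1, 99.4 for Grk2, 47.0 for Mapk6 and 66.4 for Rundc3a. Each DHPG input was above every depolarized input. The choice of genes with low depolarized libraries favors that, and it was not counted over all genes, so nothing is read from it. Apba1 was low with DHPG in pulldowns, where 98.1 to 124 CPM lay below every resting pulldown of the KCl experiment. All 6 astrocyte markers together summed to between 83.8 and 103 CPM in the DHPG groups, against 318 to 933 CPM in resting groups of the KCl experiment, and none of the 6 was at 0 in any group. Oligodendrocyte markers summed to between 12.4 and 41.9 CPM with DHPG and to between 76.7 and 494 at rest. Whether these cells have a part in the level of Hs3st1 was not tested, and treatment and experiment cannot be told apart.

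The orders of the remaining groups differed by gene. Apba1 was highest in resting TurboID-PSD95 and Pan-TurboID inputs, whose ranges overlap, and its resting knockdown pulldowns (111 CPM) overlapped the DHPG pulldowns (111 CPM). Rundc3a was highest in resting TurboID-PSD95 pulldowns (177 CPM), which overlap the DHPG pulldowns (150.2 CPM) and, through them, the resting Pan-TurboID pulldowns (142 CPM). Grk2 had its highest level in DHPG pulldowns (182 CPM), clear of the next group, and Adgrl1 in DHPG pulldowns (567 CPM), which overlap the resting pulldowns. Mapk6 was highest in resting TurboID-PSD95 pulldowns (86.9 CPM), and its lowest group, depolarized knockdown inputs (3.73 CPM), overlapped the depolarized Pan-TurboID inputs (7.40 CPM).

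The group means of the 6 genes moved together to different degrees. Over the 14 groups, Pearson's r of log2(CPM + 1) ran from 0.57 between Hs3st1 and Rundc3a to 0.96 between Adgrl1 and Mapk6, as a description of points that share depolarized and resting libraries. Of 7937 genes with a mean of at least 16 CPM, those most like Adgrl1 were Prkce (0.97), Dicer1 (0.97) and Lrfn3 (0.97), and Grk2 shared Prkce (0.98) and Lrfn3 (0.97) with it, beside Pdzd4 (0.97). Mapk6 was most like Nrd1 (0.98), Dpp8 (0.98) and Rnf10 (0.97), and Rundc3a like Ap2a1 (0.98), Tmem63b (0.98) and Sbf1 (0.98). Apba1 was most like Zfyve9, Mprip and Evl (0.96, 0.96 and 0.95), and Hs3st1 like Brpf3 (0.96) and Rasa1 (0.94).

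Relatives and partners of each gene were taken as lists and tested in inputs of the KCl experiment. The count that was lower after KCl ranged from 0 of 5 receptor kinases and arrestins to 6 of 12 MAP kinases. In the Mint and LIN complex around Apba1, 4 of 10 genes were lower, 0 higher and 6 did not pass, with a median log2 fold change of −0.34 against −0.01 over all genes, of which 9.03% were lower and 6.32% higher. Caskin1, a scaffold that binds Cask, went from 162 ± 18.9 to 74.3 ± 6.45 CPM (SD, 6 inputs each), a log2 fold change of −1.09 (edgeR, SE 0.142, FDR 4.76e-06). Apba2, the closest relative of Apba1, fell by 0.64 (edgeR, SE 0.121, FDR 0.000502) from 347 ± 26.0 to 217 ± 24.4 CPM. Of the latrophilins and their partners, 1 of 10 tested genes was lower, Flrt2, a ligand of latrophilins, at −1.77 (edgeR, SE 0.183, FDR 9.63e-08) from 56.5 ± 6.72 to 16.5 ± 4.73 CPM. Adgrl2 (−0.26, FDR 0.313), Adgrl3 (−0.54, FDR 0.390) and Tenm1 (−0.42, FDR 0.191) did not pass. The medians were −0.26 for this list and −0.51 for the MAP kinases, the lowest of the 6 lists.

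Of the MAP kinases, 6 of 12 tested were lower and 0 higher. Mapk10 (JNK3) went from 70.8 ± 6.81 to 25.4 ± 7.45 CPM (edgeR, −1.44, FDR 2.10e-05), and Nlk from 16.3 ± 2.58 to 8.77 ± 1.67 CPM (edgeR, −0.89, FDR 0.00404). Mapk4, the closest relative of Mapk6, was at −1.96 (edgeR, SE 0.621, FDR 0.0317) from only 4.58 CPM at rest, and Mapkapk5, its partner, was at −0.41 (FDR 0.334). In heparan sulfate synthesis, 4 of 19 tested genes were lower, 3 higher and 12 did not pass, at a median of −0.16. Hs3st2 was at −1.06 (edgeR, SE 0.252, FDR 0.00471) and Ext1, which elongates the chain, at −0.80 (edgeR, SE 0.201, FDR 0.00724), whereas Ndst4, Glce and Hs6st2 were the 3 that rose. None of 5 tested receptor kinases and arrestins passed in edgeR, and 0 had an unadjusted p under 0.05, with Grk3, the closest relative of Grk2, at 0.29 (FDR 0.459) and Grk5 at −0.46 (FDR 0.559), at a median of 0.05. Around Rundc3a, 1 of 10 genes was lower, Plekhm2 at −0.60 (edgeR, SE 0.145, FDR 0.00556), and Rundc3b, its closest relative, was at 0.32 (FDR 0.210), at a median of 0.00. In knockdown inputs, where 10.3% of all genes were lower, 5 of 10, 5 of 10, 6 of 12, 5 of 19, 1 of 5 and 3 of 10 were lower in the same order of lists, with 0 higher in each.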

How the data were processed

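The authors trimmed reads with Rfastp, aligned them with Rsubread to mm10 and deposited, for each library, the count of footprints per CDS and 5′ UTR segment, beside an RPKM column that was not used here. Counts were taken at the 5′ end of reads of 25 to 100 nt without an offset. For each gene, the counts of the longest transcript's segments were summed. CPM are per 1000000 CDS footprints, so a change in composition moves every gene. The KCl, knockdown and DHPG sets were fitted separately with edgeR 4.0.16 (quasi-likelihood test, TMM, filterByExpr, Benjamini-Hochberg FDR under 0.05). DESeq2 1.42.0, other scalings, filters and transcripts, a replicate block and leaving out replicates were alternatives. In the KCl experiment, input and pulldown of the same number deviated together (r 0.15 to 0.46), so they were treated as pairs in that alternative. Resting and depolarized libraries of the same number did not. The 6 genes, the lists of relatives and the markers were chosen with earlier results of these data known. Beside the 6 genes, the text names from each list the closest relatives and the 2 genes of smallest p in inputs, with some partners. Some genes that this rule or the likeness ranking would name are not reported here.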

Additional observations from a re-analysis of the deposited data

Results flagged for a closer look

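The KCl change in log2 differed between pulldowns and inputs of knockdown neurons for 461 of 12239 genes. The difference was positive for 183 and negative for 278 of them. Of the 6 genes, 2 were among the positive, which is why they are listed, and nothing is read from this count. The difference was 2.05 for Mapk6 (SE 0.440), from counts of 12 and 10 in depolarized inputs, and 1.78 and no longer past the threshold without the KCl input of replicate 1. For Apba1 it was 0.81 (SE 0.217), and the call was lost when any of 6 of the 8 libraries was left out. Both are given as descriptions, since the choice of the genes may have used the KCl changes that enter the difference.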

How the results depend on the processing

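Leaving out libraries gave 517 to 2095 genes past the threshold in inputs (1998 with all), 91 to 1450 in TurboID-PSD95 pulldowns (858), 72 to 711 in Pan-TurboID pulldowns (655) and 1181 to 2836 in knockdown inputs (2361). For pulldown against input it gave 1824 to 4581 genes and 1 to 3 of the 6 with TurboID-PSD95, 1280 to 3737 genes and 1 to 2 of the 6 with Pan-TurboID, and 0 to 1 genes for the difference of the ligases. For the knockdown interaction it gave 166 to 653 genes and 0 to 2 of the 6. DESeq2 called 1377 genes in TurboID-PSD95 pulldowns, 1048 in Pan-TurboID pulldowns, 2 for the difference of the ligases, 2 of the 6 in Pan-TurboID pulldown against input and 1 in the interaction (Apba1), where the adjusted p was NA for Mapk6 and Hs3st1. Fitting only the libraries compared gave 118 genes in TurboID-PSD95 pulldowns and 3667 in knockdown inputs. That fit, RLE size factors and the transcript with most counts each gave 2 of the 6 in Pan-TurboID pulldown against input. The main fit called 34.2% of 13019 genes and 1 of the 6 in that comparison. The shares of all genes under these other settings are not given here, so nothing is read from their counts of the 6. Without TMM or without a filter, 0 genes passed for the difference of the ligases. The cause of these shifts was not tested.

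With the replicate block, 984 genes passed for KCl in Pan-TurboID pulldowns and 2 genes for the difference of the ligases. In Pan-TurboID pulldown against input, the replicate block gave 3 of the 6 and 6202 of 13019 genes. The block brought Apba1 past the threshold with both ligases (−0.36 and −0.30) and Adgrl1 with Pan-TurboID (0.38), and changed no other call of the 6 genes. Some values that did not pass changed sign when a library was left out. Hs3st1 in TurboID-PSD95 pulldown against input ran from −0.0031 to 0.14, and Apba1 in the difference of the ligases from −0.11 to 0.036, each with the turned sign without replicate 3. In the interaction, Hs3st1 ran from −0.76 to 0.11, positive without the resting pulldown of replicate 2, and Grk2 from −0.32 to 0.21, positive without the KCl input of replicate 1 (0.21) or the KCl pulldown of replicate 2 (0.10). With the total of all segments, the log2 ratio of Apba1 in knockdown inputs was −2.38. Low counts limit Mapk6 and Hs3st1 in depolarized libraries.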
